A study of Mus musculus with 8 samples.

Results

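The 9 genes of retinol uptake and retinoic acid synthesis described here were measured in kidneys of mouse embryos at E13.5: Stra6, Rbp4, Rdh10, Dhrs3, Aldh1a1, Aldh1a2, Aldh1a3, Crabp1 and Crabp2. They were taken as all non-control probes whose RefSeq accession maps to these genes, which gave 11 probes of 41174 on the array and 9 genes of the 31183 tested. Of the 31183, 17114 carried a gene symbol. Each array identifier without a symbol was counted as its own gene, so a gene may count more than once. Shares of all genes given below are over the 31183. Earlier results of the same comparison were known when the genes were chosen, so their ratios are given as a description. Statistical calls that include them are stated, and nothing is read from those calls. All 9 genes passed the filter on dim probes, and all 11 probes were well above background in both RNAs on all 8 arrays.

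The tested RNA came from mutant (UB HDAC1, 2-/-) kidneys, in which the histone deacetylases HDAC1 and HDAC2 are deleted in the ureteric bud (UB), and the other from wild type kidneys, both of a CD1 C57BL/6 mix strain at E13.5. Of the non-control spots, 82.1% to 95.9% passed the scanner's background criterion in the mutant channel and 79.2% to 97.1% in the wild type channel. The line that drives the deletion and the number of embryos behind each RNA are not given in the sources used here. Each of 4 biological replicates paired 1 mutant with 1 wild type RNA on 2-colour arrays, in both dye orientations, which gave 8 arrays. Whole kidneys were dissected, so the RNA also holds the stroma, the nephron progenitors and other cells outside the bud. In such RNA, fewer cells of a type and less RNA per cell cannot be told apart.

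Retinol travels in plasma bound to RBP4 and enters cells through the receptor STRA6. RDH10 oxidises retinol to retinal, DHRS3 reduces retinal back to retinol, and the ALDH1A enzymes oxidise retinal to retinoic acid, the ligand of the nuclear receptors RAR and RXR. CRABP1 and CRABP2 bind retinoic acid in the cytosol. In the embryonic mouse kidney Aldh1a2 is known as the enzyme of the stroma and Aldh1a3 as an enzyme of the ureteric bud, and retinoic acid from the stroma maintains Ret, the receptor that drives branching, in the bud.

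The direction of every ratio follows the dye labels, and was not settled here. Hdac2, the only deleted gene analysed here, had log2 ratios of 0.60, 0.60, 0.74 and -0.61 in replicates 1 to 4, so it was lower in 1 of the 4 RNAs labelled mutant. Whether its probe lies in the deleted part of the gene is not given in the sources used here. The deletion is in the ureteric bud and whole kidney RNA also holds cells without it, so Hdac2 cannot settle the direction. In the authors' deposited table, 309 of the 309 entries that could be matched to a single spot have the opposite sign to the mean scanner ratio over the 8 arrays. That table lists Stra6 at 1.15, Aldh1a1 at 1.07 and Aldh1a3 at 0.974 on the log2 scale, against scanner means of -1.15, -1.07 and -0.98, and does not say which genotype stands on top. The authors' deposited table does not list the other 6 genes. The 2 RNAs are therefore called labelled mutant and labelled wild type. If the authors wrote mutant on top, their table and the dye labels conflict. All signs given here would turn if the dye labels are then the ones in error.

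Of the 9 genes, 3 stood lower in the RNA labelled mutant in every replicate, and the other 6 did not reach a 1.4-fold mean difference in either direction. Stra6 was 2.22-fold, Aldh1a1 2.10-fold and Aldh1a3 1.97-fold lower in the RNA labelled mutant, while Aldh1a2, the stromal enzyme of the same family, was 1.04-fold lower, less than its spread between replicates. A mean at least 1.4-fold lower was found for 3 of the 9 genes and for 2.32% of all genes tested, and one at least 1.4-fold higher for 0 of the 9 and 0.962% of all. The mean was below 0 for 7 of the 9 genes and for 47.2% of all genes. It was below 0 in 4 of 4 replicates for 3 of the 9 and for 5.47% of all. Signals of all 4 replicates labelled mutant lay below all 4 labelled wild type for the same 3 genes and for 0.337% of all genes. The reverse held for 0 of the 9 genes and 0.443% of all. Because the genes were chosen on this contrast, nothing is read from these shares. Over the whole table, limma called 3 genes at an adjusted p under 0.05, which is 0.00962% (0.00321% lower and 0.00641% higher), and none of them was among the 9. Stra6, Aldh1a1 and Aldh1a3 were among the genes called in the fit of all 8 arrays with a replicate block (107 genes, 0.343%). They were also called with array weights (230 genes, 0.738%) and within slide 2, of replicates 3 and 4 only (716 genes, 2.3%). Every other fit tried called 0 of the 9, and nothing is read from these calls either. At an unadjusted p under 0.05 limma had 1793 genes, or 5.75%. The 3 called genes, chosen here for their p, were BC048679 at a log2 ratio of -2.90 (adjusted p = 0.0184), Fxyd4, a regulator of the sodium pump, at 1.73 (adjusted p = 0.0442), and the unnamed transcript XM_138397 at 1.55 (adjusted p = 0.0488).

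**Figure D1:**
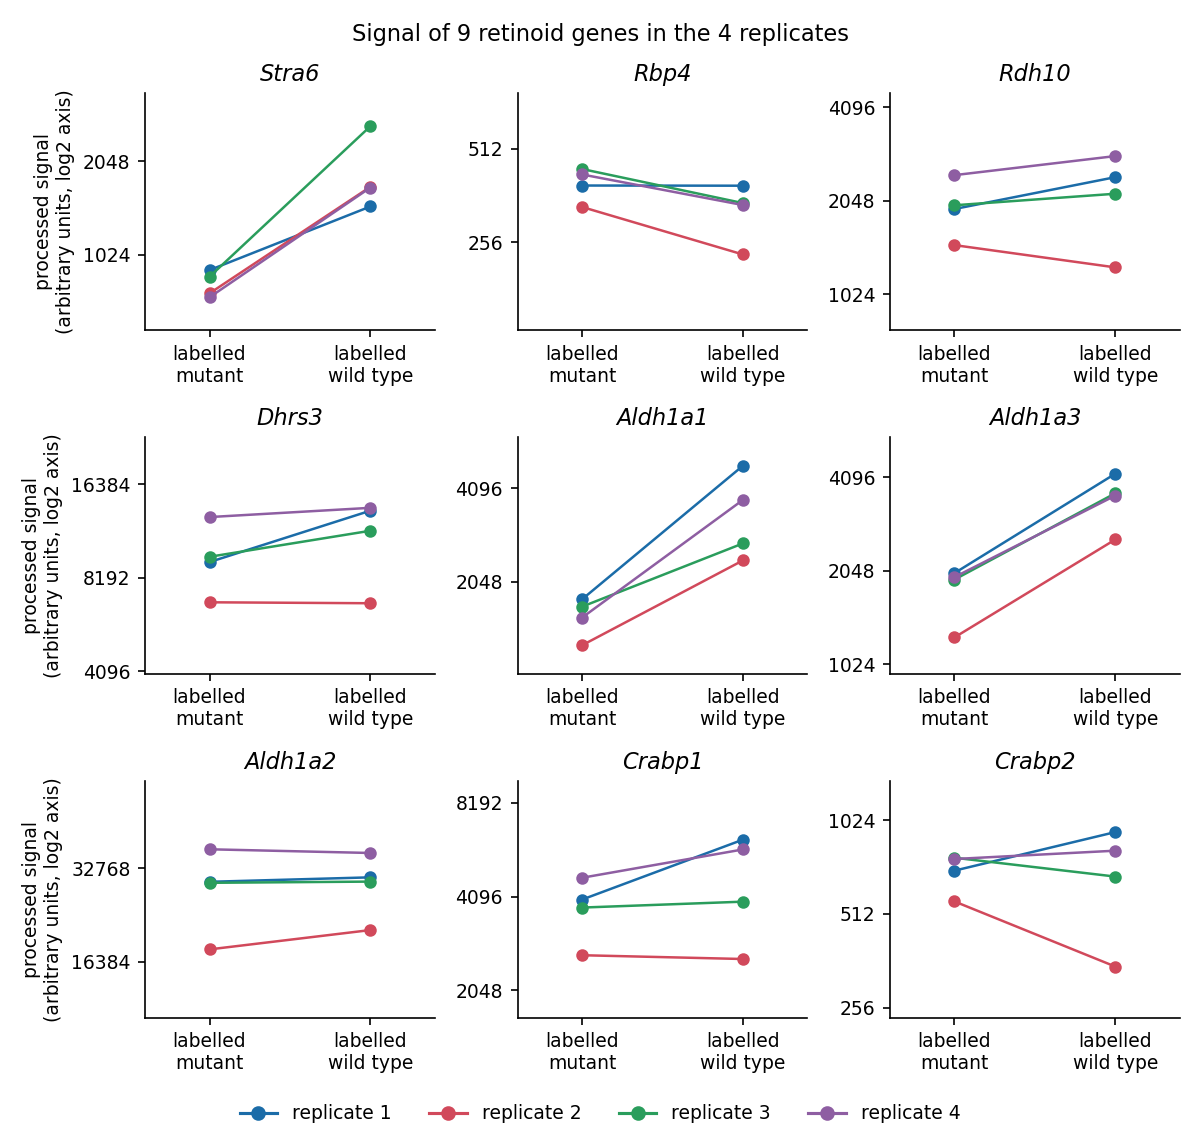
Processed signal of the probe that stands for each gene, in arbitrary units on a log2 axis, with the RNA labelled mutant on the left and the RNA labelled wild type on the right of each panel. Each line is 1 replicate, as the geometric mean of its 2 dye orientations. Lines run upward to wild type in all 4 replicates for Stra6, Aldh1a1 and Aldh1a3 and lie nearly flat for Aldh1a2.

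Stra6, the membrane receptor through which cells take up retinol, had the lowest mean ratio of the 9 genes. Its processed signal, in arbitrary units averaged over the 2 arrays of a replicate, was 915, 771, 871 and 748 in replicates 1 to 4 labelled mutant, against 1466, 1696, 2657 and 1687 in the same replicates labelled wild type. The groups did not overlap, and the 4 values labelled mutant lay closer together than the 4 labelled wild type. The log2 ratio was -0.68, -1.14, -1.61 and -1.17, with a mean of -1.15 ± 0.38 (SD, n = 4). Replicate 1 thus had the smallest and replicate 3 the largest difference. On the single arrays the ratio lay between -1.80 and -0.49, below 0 on 8 of 8.

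Rbp4, which encodes the plasma carrier of retinol that STRA6 recognises, lay on the other side of 0. Its signal was 390, 333, 441 and 424 labelled mutant, against 390, 234, 343 and 338 labelled wild type, so the groups overlapped. The log2 ratio was 0.00, 0.51, 0.36 and 0.33, with a mean of 0.30 ± 0.21 (SD, n = 4). It was thus above 0 in 4 of 4 replicates, as were 10.8% of all genes, but in replicate 1 by 0.0019 only. Background correction with normexp and loess normalization gave 0.16 for Rbp4. Stra6 minus Rbp4 was -0.68, -1.65, -1.97 and -1.50 in log2 ratio, mean -1.45 ± 0.55 (SD, n = 4). Ttr, the partner that carries RBP4 in plasma, had log2 ratios of 0.85, -3.27, -0.44 and 0.39, with replicate 2 far below the others and a mean of -0.62, or 0.27 without replicate 2. The 8 secreted liver and yolk sac genes measured had summed signals of 1147 to 1489 labelled mutant and 1011 to 2432 labelled wild type, and 5 of the 8 were above background in both RNAs on all arrays. Their part in the Rbp4 ratio was not tested.

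Aldh1a1 and Aldh1a3, both of which make retinoic acid from retinal, stood lower in the RNA labelled mutant in every replicate. The Aldh1a1 signal was 1798, 1279, 1703 and 1570 in replicates 1 to 4 labelled mutant, against 4835, 2399, 2720 and 3754 labelled wild type. The groups did not overlap, and the signal labelled wild type varied by more than that labelled mutant. The log2 ratio was -1.43, -0.91, -0.68 and -1.26, with a mean of -1.07 ± 0.34 (SD, n = 4) and values below 0 on 8 of 8 arrays. Aldh1a7, a close paralog of Aldh1a1 in mouse, had a log2 ratio of 0.30 ± 0.32 (SD, n = 4), and whether the 2 probes read each other's transcript was not tested.

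For Aldh1a3 the signal was 2010, 1249, 1917 and 1952 labelled mutant, against 4199, 2580, 3632 and 3570 labelled wild type. The 2 groups again did not overlap, and replicate 2 was the dimmest in both. The log2 ratio was -1.06, -1.05, -0.92 and -0.87, with a mean of -0.98 ± 0.09 (SD, n = 4), the smallest spread of the 9 genes. Its single arrays split by dye. With the labelled mutant in Cy5 the mean was -1.24 and with the labelled mutant in Cy3 it was -0.71, and each replicate had the larger difference on its Cy5 array. Both orientations of every replicate were below 0. For Aldh1a1 the same means were -0.84 with the labelled mutant in Cy5 and -1.29 with it in Cy3, the other way round, and for Stra6 -1.21 and -1.09.

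**Figure D2:**
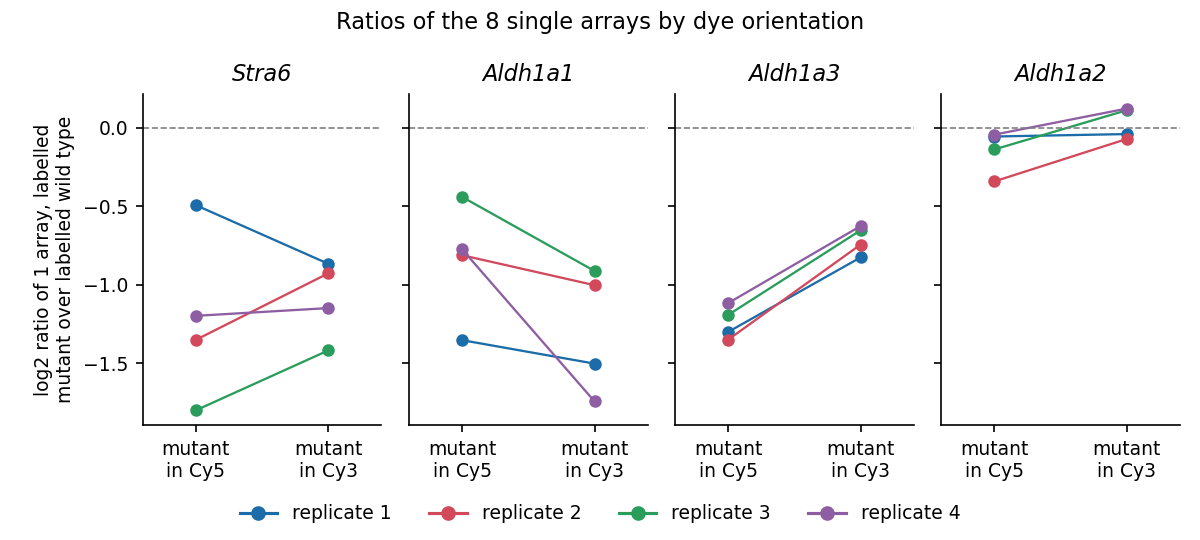
Log2 ratio of each of the 8 single arrays for Stra6, Aldh1a1, Aldh1a3 and Aldh1a2, with the labelled mutant in Cy5 on the left and in Cy3 on the right, and 1 line for each replicate. All arrays lie below 0 for the first 3 genes, all 4 Aldh1a3 lines are lower in Cy5 than in Cy3, and Aldh1a2 stays between -0.34 and 0.12.

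Aldh1a2, whose product makes retinoic acid in the stroma, had nearly equal signal in both RNAs. Its signal was 29668, 17988, 29448 and 37746 labelled mutant, against 30664, 20755, 29714 and 36726 labelled wild type. The log2 ratio was -0.05, -0.21, -0.01 and 0.04, with a mean of -0.06 ± 0.11 (SD, n = 4), and its groups overlapped almost fully. Within each replicate Aldh1a3 lay below Aldh1a2 by -1.02, -0.84, -0.91 and -0.91 in log2 ratio, mean -0.92 ± 0.07 (SD, n = 4). The same difference from Aldh1a2 was -1.01 ± 0.38 for Aldh1a1 and -1.09 ± 0.41 for Stra6 (SD, n = 4 each). Aldh1a1 minus Aldh1a3 was -0.09 ± 0.33 (SD, n = 4), with 2 replicates on each side of 0. These differences compare ratios, which show unequal change between genes and not that Aldh1a2 itself was the same.

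The start regions of Stra6, Aldh1a1 and Aldh1a2 differ in sequence, and 4 of them are printed. They belong to 2 of the 3 lower members and to the stromal enzyme, and none was available for Aldh1a3. The sequences are those of RefSeq on GRCm38.p6. The table gave 13 windows for 6 of the 9 genes, Stra6, Aldh1a1, Aldh1a2, Dhrs3, Crabp1 and Rbp4. Each line holds the 250 bases before a listed start, on the plus strand of the genome, at chr9:58128838-58129087 for the first of 4 listed Stra6 starts, at chr19:20492333-20492582 and chr19:20601718-20601967 for the 2 Aldh1a1 starts, and at chr9:71215539-71215788 for Aldh1a2. Each lies directly upstream of an annotated transcript start, and which start the transcripts of these kidneys used was not measured. Capitals mark the GC box GGGCGG, the receptor half-site AGGTCA, its variant AGTTCA, its variant GGTTCA, its variant GGGTCA, and the TATA box TATAAA, searched on both strands.
Stra6, start 1: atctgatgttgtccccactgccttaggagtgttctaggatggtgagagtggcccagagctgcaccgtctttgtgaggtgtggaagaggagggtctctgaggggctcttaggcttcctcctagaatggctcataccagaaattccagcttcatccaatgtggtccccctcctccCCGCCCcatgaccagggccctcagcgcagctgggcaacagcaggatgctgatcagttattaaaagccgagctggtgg
Aldh1a1, start 1: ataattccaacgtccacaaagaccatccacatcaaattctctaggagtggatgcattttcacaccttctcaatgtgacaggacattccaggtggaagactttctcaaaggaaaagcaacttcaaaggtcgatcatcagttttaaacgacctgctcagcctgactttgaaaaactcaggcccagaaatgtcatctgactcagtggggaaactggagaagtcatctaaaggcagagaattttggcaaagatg
Aldh1a1, start 2: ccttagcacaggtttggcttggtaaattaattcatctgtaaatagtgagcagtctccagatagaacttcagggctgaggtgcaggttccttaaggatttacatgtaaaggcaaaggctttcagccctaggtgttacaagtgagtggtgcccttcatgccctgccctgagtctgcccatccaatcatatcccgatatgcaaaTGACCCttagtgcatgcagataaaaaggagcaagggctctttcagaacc
Aldh1a2: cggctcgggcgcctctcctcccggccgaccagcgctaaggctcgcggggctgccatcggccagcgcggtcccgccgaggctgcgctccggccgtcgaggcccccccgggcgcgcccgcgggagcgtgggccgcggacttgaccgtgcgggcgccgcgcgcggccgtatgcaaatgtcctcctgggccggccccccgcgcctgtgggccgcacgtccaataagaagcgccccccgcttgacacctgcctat

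The Aldh1a2 window was the richest in CpG of the 13, with 40 CpG dinucleotides and 77.6% G and C, and 98.7% of all 32851 windows of this length held fewer. The Aldh1a1 windows held 3 and 1 CpG at 42.8% and 46.4% G and C, and the 4 Stra6 windows held 4, 9, 3 and 3. The median over all windows was 6 CpG and 52.4%. Any of the 4 half-sites occurred in 2 of the 13 windows (GGGTCA at Aldh1a1 start 2 and at Rbp4 start 1), against 38.6% of all windows. The 13 are not all separate regions, since the windows of Dhrs3 starts 2 and 3 overlap. GC boxes occurred in 5 of the 13 windows, of Stra6, Crabp1 and Rbp4, against 32.7% of all windows. A match of letters is a description, and the arrays hold no measure of binding or chromatin at these starts.

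Rdh10 and Dhrs3, which run the step between retinol and retinal in opposite directions, had mean ratios within the spread between replicates for the brighter probe of each. The Rdh10 signal of its brighter probe was 1929, 1476, 1983 and 2478 labelled mutant, against 2442, 1252, 2159 and 2854 labelled wild type. Its log2 ratio was -0.34, 0.24, -0.12 and -0.20, mean -0.11 ± 0.25 (SD, n = 4), with replicate 2 on the other side of 0 from the rest. The second Rdh10 probe gave 0.06 ± 0.59 (SD, n = 4), from -0.57 in replicate 4 to 0.86 in replicate 2. The probes disagreed in sign of the mean, and both put replicate 2 highest.

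Dhrs3 had a signal of 9201, 6830, 9567 and 12838 labelled mutant, against 13460, 6782, 11601 and 13747 labelled wild type. Its log2 ratio was -0.55, 0.01, -0.28 and -0.10, mean -0.23 ± 0.24 (SD, n = 4), and the second probe gave -0.17 ± 0.10 (SD, n = 4). The second probe was below 0 in all 4 replicates, where the brighter probe was below 0 in 3, so the second probe's mean was farther from 0 than its SD. Rdh10 minus Dhrs3 was 0.12 ± 0.15 (SD, n = 4), so the pair did not part by more than its spread.

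Crabp1 and Crabp2, the cytosolic binding proteins of retinoic acid, varied more between replicates than between the RNAs. The Crabp1 signal was 4003, 2652, 3774 and 4706 labelled mutant, against 6240, 2579, 3942 and 5803 labelled wild type. The log2 ratio of Crabp1 was -0.64, 0.04, -0.06 and -0.30, mean -0.24 ± 0.30 (SD, n = 4). Crabp2 had a signal of 705, 562, 776 and 769 labelled mutant, against 939, 347, 675 and 818 labelled wild type. Its log2 ratio was -0.41, 0.70, 0.20 and -0.09, mean 0.10 ± 0.47 (SD, n = 4), with 2 replicates on each side of 0. Without replicate 2 the Crabp2 mean was -0.10. Crabp2 nevertheless lay above Crabp1 within each replicate, by 0.23, 0.66, 0.26 and 0.21 in log2 ratio, mean 0.34 ± 0.21 (SD, n = 4).

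**Figure D3:**
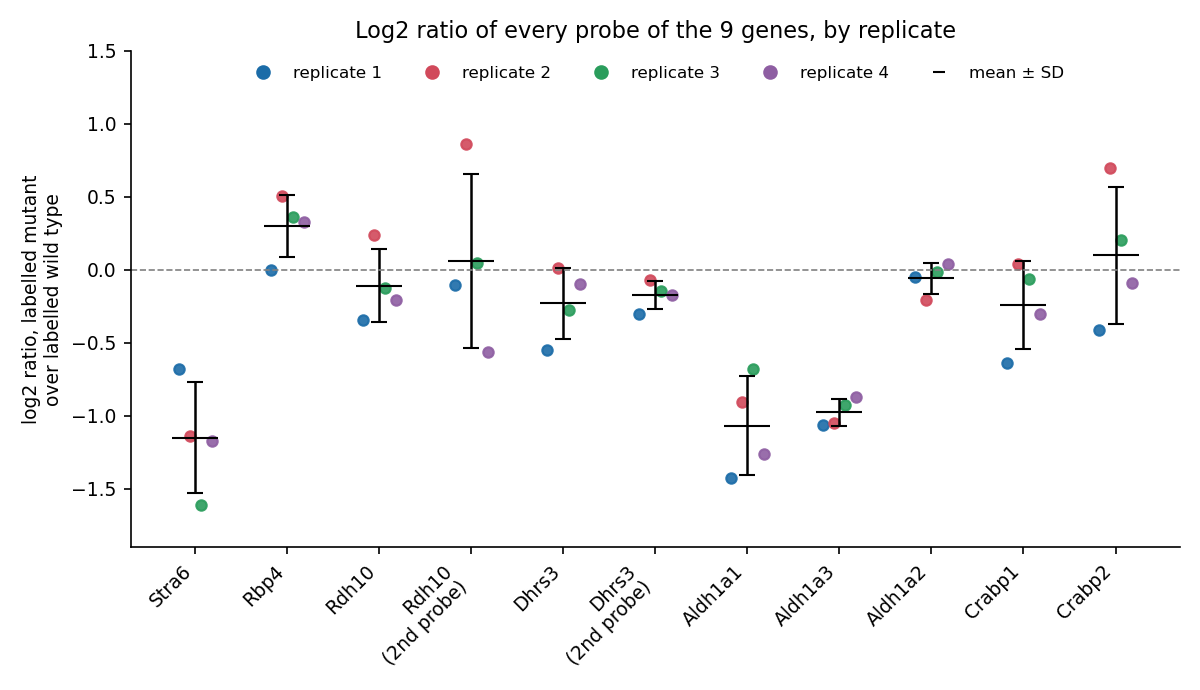
Log2 ratio (labelled mutant over labelled wild type) of all 11 probes of the 9 genes, with 1 point for each replicate and the mean ± SD (n = 4) in black. Stra6, Aldh1a1 and Aldh1a3 have every replicate below -0.6, Rbp4 has none below 0, the second Dhrs3 probe lies between -0.30 and -0.07, and the other probes have replicates on both sides of 0.

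Replicate 2 had the lowest weight of the 4 replicates in limma's array weights, 0.178, against 1.25, 3.39 and 1.32 for replicates 1, 3 and 4. Over all probes, the 2 arrays of a replicate correlated (Pearson) at 0.26, 0.56, 0.21 and 0.41 in replicates 1 to 4. With the labelled mutant in Cy3, replicates 3 and 4 correlated at 0.52. The replicate 1 array with the labelled mutant in Cy5 correlated at -0.34 to 0.07 with arrays of other replicates. Among the 9 genes replicate 2 had the highest ratio of the 4 for Rbp4, Rdh10, Dhrs3, Crabp1 and Crabp2 and the lowest for Aldh1a2. Without replicate 2 the means were -1.15 for Stra6, -1.12 for Aldh1a1, -0.95 for Aldh1a3 and -0.01 for Aldh1a2. Replicates 1 and 2 shared slide 1 and replicates 3 and 4 slide 2. Within slide 1 the means were -0.91 for Stra6, -1.17 for Aldh1a1, -1.05 for Aldh1a3 and -0.13 for Aldh1a2. Within slide 2 they were -1.39, -0.97, -0.90 and 0.01 in the same order.

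Genes with ratios most like those of Stra6, Aldh1a3 and Aldh1a2, by Euclidean distance over the 4 replicate log2 ratios among 17113 other named genes, were read off as a description. For Stra6 they were Pinx1 (distance 0.417), Inhbb, an activin subunit (0.484), and Nat3 (0.571). For Aldh1a3 they were Vdr, the vitamin D receptor (distance 0.350), Adamts18 (0.413) and Flrt1 (0.498). The Vdr log2 ratio was -0.99 ± 0.16 (SD, n = 4), against -0.98 for Aldh1a3. For Aldh1a2 the nearest were Zfp12, Zfp775 and Olfr1364 at distances of 0.037 to 0.0475.

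Beyond the 9 genes, 69 of 73 further retinoid pathway genes were measured, and limma called 0 of them in either direction, beside 0.00962% of all genes. At an unadjusted p under 0.05 there were 7 of the 69, beside 5.75% of all genes. Of the 69, 37 lay above 0 and 32 below, beside 47.2% of all genes below 0, and their median was 0.01, as over all genes. The 6 receptor genes of retinoic acid, to which the ligand binds in the nucleus, lay between -0.08 (Rarg) and 0.15 (Rxrg). Rara stood at 0.08 ± 0.09, Rarb at -0.01 ± 0.16, Rxra at 0.02 ± 0.27 and Rxrb at 0.00 ± 0.16 (SD, n = 4 each). Of the enzymes that break retinoic acid down, Cyp26a1 stood at 0.12 ± 0.14 and Cyp26b1 at -0.15 ± 0.15 (SD, n = 4 each).

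Among 17 retinoic acid target genes, 7 had a positive and 10 a negative mean (median -0.05), and limma called 0. Tgm2, a transglutaminase induced by retinoic acid in many cells, had ratios of 0.70, 0.64, 0.63 and 0.56, mean 0.63 ± 0.05 (SD, n = 4; limma adjusted p = 0.192). Its 3 probes ranged from 0.11 to 0.63, and the limma fit of all 8 arrays with a replicate block called Tgm2 at an adjusted p of 0.00764. The homeobox genes Hoxd4 at -0.51 ± 0.64 and Hoxb4 at -0.42 ± 0.50 (SD, n = 4 each) had the lowest means of the list. Rarb and Cyp26a1, which retinoic acid induces through their own promoters in many tissues, both lay within their SD of 0.

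The remaining enzymes and carriers were spread on both sides of 0. Of 15 measured retinol and retinal oxidoreductases outside the 9 genes, 9 were above 0 and 6 below (median 0.07), with Dhrs4 at 0.51 ± 0.33, Dhrs7 at 0.35 ± 0.25 and Aldh8a1 at -0.42 ± 1.13 (SD, n = 4 each). Of 14 other aldehyde dehydrogenases 7 were above and 7 below 0 (median 0.03), with Aldh1b1 at -0.39 ± 0.58 and Aldh7a1 at -0.28 ± 0.58. Of 11 carriers and enzymes of retinoid esterification and cleavage 6 were above 0 (median 0.01). Lrp2, the endocytic receptor megalin that takes up RBP4, stood at -0.48 ± 0.13 (SD, n = 4; limma adjusted p = 0.452), with 4 probes from -0.48 to 0.08. Rbp7, a cytosolic carrier of retinol, stood at 0.44 ± 0.47, with its second probe at -0.22. The 9 receptor coregulators had a median of 0.03, with Crebbp at -0.46 ± 0.97, Ncor1 at -0.17 ± 0.25 and Ncoa1 at -0.13 ± 0.24 (SD, n = 4 each). Without replicate 2 the means were 0.02 for Crebbp, 0.14 for Aldh8a1 and 0.0023 for Aldh7a1. Limma called none of these.

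**Figure D4:**
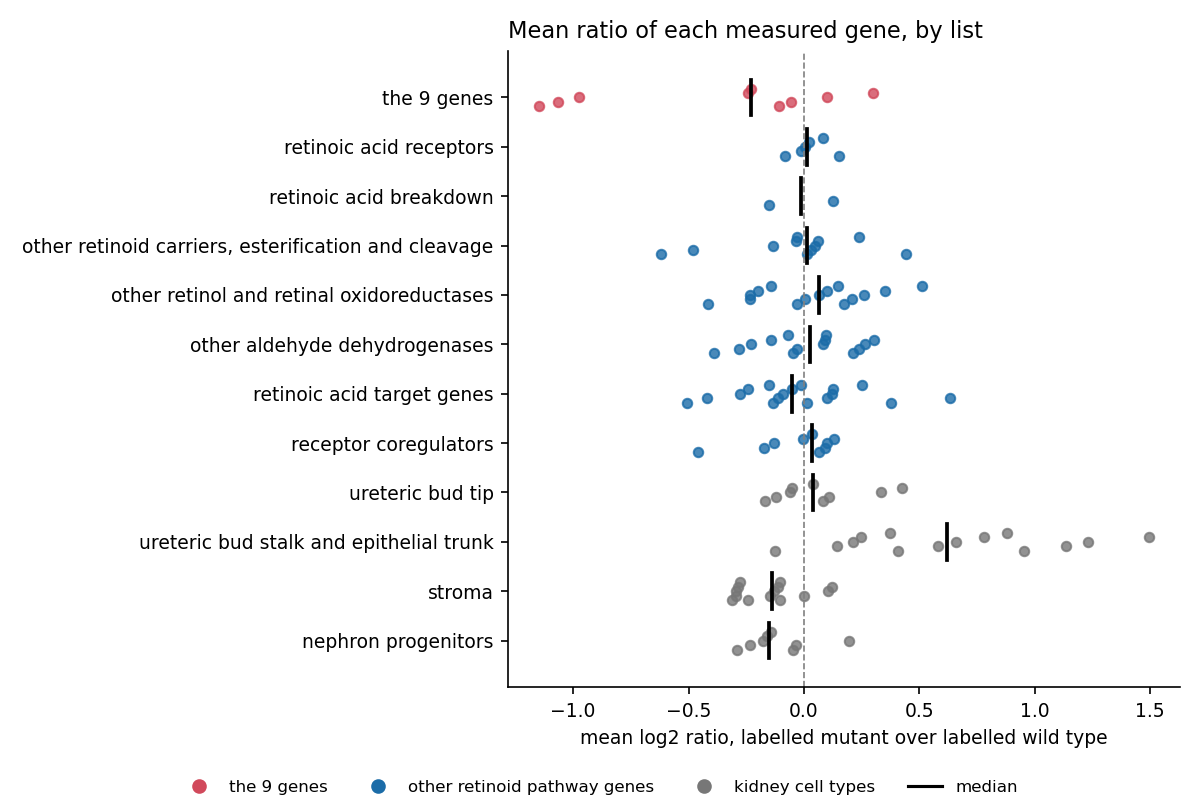
Mean log2 ratio of each measured gene, with the 9 genes in red, other retinoid pathway genes in blue, kidney cell type markers in grey, and the median of each list as a black bar. The 3 lowest members lie below every gene of the other lists, the median of the bud stalk list is 0.62, and the medians of the pathway lists lie between -0.05 and 0.07.

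Markers of the kidney's cell types were read beside these ratios. The 14 markers of the bud stalk and epithelial trunk, all above background in both RNAs on all arrays, had 13 positive means and 1 negative, around a median log2 ratio of 0.62, from Wnt9b at -0.13 to Cdh16, a kidney cadherin, with 1.43, 1.30, 1.61 and 1.65 in the 4 replicates. Without replicate 2 the Wnt9b mean was 0.24. The summed signal of the 14 markers was 75599 to 143883 labelled mutant and 53752 to 78702 labelled wild type, ranges that overlap. These ranges run over the 4 replicates and do not keep the pairing within a replicate. In log2 ratio, which keeps it, 11 of the 14 were above 0 in 4 of 4 replicates, beside 10.8% of all genes. In mean log2 ratio the bud enzyme Aldh1a3 lay on the other side of 0 from most of these stalk and trunk markers. The 9 bud tip markers had a median of 0.04, from -0.17 (Gfra1) to 0.42 (Wnt11). The other Gfra1 probe stood at 0.22, and without replicate 4 the Gfra1 mean was -0.0032. Summed signals of the bud tip markers were 13434 to 22129 labelled mutant and 14042 to 20532 labelled wild type. Of 14 stromal markers 11 were below 0 (median -0.14, from Ecm1 at -0.31 to Pdgfra at 0.12, or -0.01 without replicate 2), with summed signals of 169382 to 277563 labelled mutant and 172962 to 345207 labelled wild type, beside the -0.06 of Aldh1a2. Of 8 nephron progenitor markers 7 were below 0 (median -0.15, from Sall1 at -0.29 to Gdnf at 0.20), and without replicate 2 the Sall1 mean was 0.08. The part of any of these in the ratios of the 9 genes was not tested.

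Markers of other cell types that a dissected kidney can hold were measured too. Of 7 macrophage genes 6 were below 0 (median -0.31, from Fcer1g at -0.39 to Ptprc at 0.53, whose 3 probes ran from -0.67 to 0.53), with sums of 3984 to 5684 labelled mutant and 5421 to 6345 labelled wild type. Medians were 0.06 for 6 endothelial genes (Kdr at -0.18, Tek at 0.50), -0.21 for 5 neuronal genes (Stmn2 at -0.71, Tubb3 at -0.02), 0.09 for 5 adrenal and gonadal genes (Nr5a1 at -0.14, Amh at 0.39), -0.07 for 4 erythroid genes (Alas2 highest at 0.10, Hbb-bh1 lowest at -0.20) and 0.09 for the 8 liver and yolk sac genes (Ttr lowest, Afp highest at 0.48). Limma called none of these markers. In both RNAs on all arrays, 1 of the 5 adrenal and gonadal genes and 3 of the 5 neuronal genes were above background.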

How the data were processed

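RNA of 4 mutant and 4 wild type kidney preparations was compared on 8 arrays, 2 for each replicate. Per the labels, 0.5 µg of total RNA was labelled for each channel. Per the file headers, the authors ran Feature Extraction 10.5.1.1 on the scans. In the deposited columns the log10 ratio is that of red (Cy5) to green (Cy3) signal after the scanner software's background subtraction and dye normalization. The deposited intensity columns hold those processed signals and, for an alternative, raw median brightness. The authors' deposited table gives 496 entries a log2 value each. Per the file headers, flag columns (of no other measured unit) mark spots as 0 or 1.

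Ratios were converted to log2 and turned to labelled mutant over labelled wild type, outlier spots were left out, and the arrays of a replicate averaged. Probes above background in either channel on at least 4 of 8 arrays were kept (39520), and the brightest stood for its gene. RefSeq accessions named 25097 probes through the table of GRCm38.p6, while the array design cites mm9, so coordinates belong to the RefSeq windows only. Limma 3.58.1 in R 4.3.3 (lmFit, eBayes) tested 31183 genes against 0, two-sided, with Benjamini-Hochberg adjustment. The fit was also run on simulated replicates with independent noise, which held no dye or slide effect. Limma p-values set the mean log2 ratio against its variation between the 4 replicates, with each gene's variance moderated by those of all genes. The number of replicates limits the precision, and no spot was saturated. Partners of a replicate share arrays, so the ratio keeps that pairing.

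The members and lists were chosen with earlier results of these data known, and 1 listed marker is not reported here. Named genes were all 9 members, Hdac2, the 3 largest ratios of each pathway list (all in lists of up to 6), the extremes of each marker list and the 3 nearest genes of Stra6, Aldh1a3 and Aldh1a2.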

Additional observations from a re-analysis of the deposited data

Results flagged for a closer look

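The 4 replicate log2 ratios were compared with each other for 52 named genes. By Dixon's criterion, 5 of the 52 had 1 replicate far from the other 3. Chance gives such a replicate in about 1 group in 20. The named genes include the extremes of lists, so that share need not hold for them. Over the 154 genes of all lists, 14 passed the criterion. None of the 5 was among the 9 retinoid genes. Hdac2 stood at -0.61 in replicate 4, against 0.60, 0.60 and 0.74. In replicate 2, Sall1 stood at -1.39 and Amh at 0.81. Kdr stood at 0.0169 in replicate 1 and Hbb-bh1 at -0.67 in replicate 4.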

How the results depend on the processing

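Over 15 alternatives, every mean of Stra6 (-1.39 to -0.91), Aldh1a1 (-1.29 to -0.84), Aldh1a3 (-1.24 to -0.71), Dhrs3 and Crabp1 was below 0, every mean of Rbp4 (0.14 to 0.46) above 0, and those of Aldh1a2, Rdh10 and Crabp2 lay on both sides. Members at least 1.4-fold lower numbered 3 in each. The filters, the mean over probes and the replicate block could not move a gene with 1 probe, such as Stra6 or Aldh1a3. The replicate, slide and dye settings used parts of the same arrays, all below 0 for Stra6, Aldh1a1 and Aldh1a3. In those settings the sign of these 3 genes could not turn. The signs of the authors' deposited table, of unstated direction, are opposite: 1.15 for Stra6, 1.07 for Aldh1a1 and 0.974 for Aldh1a3. The difference between Aldh1a3 and Aldh1a2 was -1.10 with the labelled mutant in Cy5 only and -0.74 with it in Cy3 only, and -0.95 to -0.89 with a replicate left out. Among 52 named genes, the mean changed sign without replicate 2 for 11 and with any 1 replicate left out for 13, an alternative chosen after seeing the data.

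The count of 3 genes called by limma was not stable. It was 2 with each array centred on its median, 0 with normexp and loess at either offset (50 or 16), 0 without a filter, 0 with an unmoderated one-sample statistic and 0 within slide 1, where 1849, 1764, 1848, 1646 and 512 genes were at an unadjusted p under 0.05. It was 1 with slide as a block, 1 and 22 with the labelled mutant in Cy5 or Cy3 only, 5 with the mean over probes, 11 with the strict filter, 230 with array weights, 716 within slide 2, and 0 to 11 with a replicate left out (0 without replicate 1, 3 or 4, and 11 without replicate 2). With all 8 arrays and a replicate block (consensus correlation 0.282) it was 107. The pathway genes called outside the members were 0, but 1 with the replicate block and 1 with array weights (Tgm2 in both), and 2 within slide 2 (Tgm2 and Hoxb4). The cause was not tested. The median SD between replicates was 0.25 (log2).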
